A study of Homo sapiens with 8 samples.

Results

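The aryl hydrocarbon receptor axis is described here by 6 genes of the 25192 gene symbols measured in 2 human colorectal cancer cell lines after depletion of peroxiredoxin II (PrxII, gene PRDX2). The 6 genes are the receptor AHR, its DNA-binding partner ARNT, the repressors AHRR and TIPARP, and the cytochrome P450 genes CYP1A1 and CYP1B1. They were matched by gene symbol, and the group was selected on the measured CYP1A1 values, which were higher after PrxII depletion in both lines from a low starting level. The CYP1A1 values of these contrasts are therefore given as a description without a test. HT29 and SW480 cells, both established lines that carry truncated APC, were transfected with PRDX2 siRNA (siPrdx2) or with a control siRNA (siCon, directed at firefly luciferase) and collected at 36 h. There were 2 libraries in each of the 4 groups, 8 in all, and each library was mRNA from a whole culture. HT29 was grown in McCoy's medium and SW480 in RPMI medium, so cell line and medium cannot be told apart in a comparison of the lines. PRDX2 RNA also fell less in HT29 than in SW480. Cell line and size of the depletion therefore cannot be told apart where the siPrdx2 effects of the lines are compared. Which PRDX2 siRNA was used is not given in the labels. The study describes the HT29 libraries as duplicate experiments. The labels do not say whether the 2 libraries of a group came from separate transfections. The p-values below therefore measure only the spread between these libraries, which may be technical in either line. In HT29 that spread was small, with a fitted coefficient of variation of 0.025 against 0.099 in SW480. Small changes can therefore pass the test in HT29.

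AHR is a ligand-activated transcription factor of the bHLH-PAS family. It waits in the cytosol in a complex with HSP90, and on binding a ligand, such as a dioxin, a polycyclic aromatic hydrocarbon or a tryptophan metabolite, it enters the nucleus and pairs with ARNT. The pair binds short DNA elements called xenobiotic response elements and turns on genes of foreign-compound metabolism, of which CYP1A1 is the best-known reporter. The same elements turn on AHRR, which competes with AHR for ARNT, and TIPARP, a mono-ADP-ribosyltransferase that acts on AHR, so that the pathway restrains itself. The intestinal epithelium meets ligands from food and bacteria and is a tissue where the pathway is known to act.

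The response elements upstream of the genes are shown first because they are the sequence that the axis reads. The 1500 bases before the canonical start of each gene on GRCh37 were searched on both strands for TNGCGTG, and for its shorter core GCGTG, which every TNGCGTG match contains. CYP1A1 held 5 matches to TNGCGTG, a number reached by 0.0201% of the 19860 windows of the same length before annotated genes, whereas 26.5% of windows held at least 1 match. CYP1B1 held 4 matches, a number reached by 0.0604% of windows. ARNT held 2, AHRR held 1, and neither AHR nor TIPARP held any. The shorter core was present 10 times before CYP1A1, 7 times before CYP1B1, 6 times before TIPARP, 5 times before ARNT, 4 times before AHRR and not before AHR, against a median of 2 over all windows and a match in 80.3% of them. The matches of CYP1A1, CYP1B1 and AHRR are printed below, each with its flanks on the strand of the gene and the match in capitals. The 2 ARNT matches, which began 1176 and 633 bases before the start, are not printed. A match that lies on the opposite strand reads as its reverse complement, and capitals beginning with CACGC mark such a match.
CYP1A1, chr15:75019236-75019266, minus strand: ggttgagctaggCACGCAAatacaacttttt
CYP1A1, chr15:75018912-75018942, minus strand: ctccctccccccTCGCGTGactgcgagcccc
CYP1A1, chr15:75018837-75018867, minus strand: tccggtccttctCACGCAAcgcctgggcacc
CYP1A1, chr15:75018749-75018779, minus strand: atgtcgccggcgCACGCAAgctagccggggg
CYP1A1, chr15:75018354-75018384, minus strand: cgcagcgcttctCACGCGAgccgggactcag
CYP1B1, chr2:38304770-38304793, minus strand: taagtCACGCAAcctctctgaacc
CYP1B1, chr2:38304267-38304297, minus strand: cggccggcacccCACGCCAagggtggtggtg
CYP1B1, chr2:38304131-38304161, minus strand: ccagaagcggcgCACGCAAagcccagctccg
CYP1B1, chr2:38304112-38304142, minus strand: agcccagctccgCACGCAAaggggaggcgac
AHRR, chr5:321785-321815, plus strand: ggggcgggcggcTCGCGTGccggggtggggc
The CYP1A1 matches began 1385, 1061, 986, 898 and 503 bases before the start, the CYP1B1 matches 1495, 992, 856 and 837 bases before it, and the single AHRR match 32 bases before it. A match is a description of letters and not of a bound site.

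**Figure D1:**
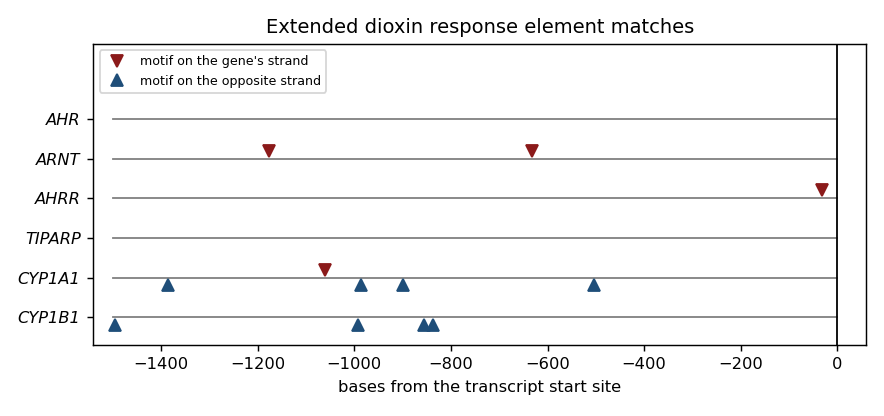
Position of each TNGCGTG match, in bases from the transcript start site, 1 row for each of the 6 genes. Red triangles mark matches on the strand of the gene and blue triangles those on the opposite strand. CYP1A1 carries 5 and CYP1B1 carries 4, while the rows of AHR and TIPARP hold none.

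The targeted gene was checked in every library before the axis was examined. PRDX2 (chr19:12907634-12912614) was at 331.29 and 343.46 TPM (transcripts scaled to a fixed library total, corrected for length) in HT29 siCon and at 193.41 and 193.63 TPM in HT29 siPrdx2. SW480 cells had 481.72 and 560.20 TPM in siCon and 169.15 and 171.87 TPM in siPrdx2. The siPrdx2 libraries lay below the siCon libraries in both lines, by log2 fold changes of -0.87 in HT29 (SE 0.05, adjusted p = 1.15e-09) and of -1.70 in SW480 (SE 0.12, adjusted p = 0.000618). These p-values and those below are from quasi-likelihood tests in edgeR, adjusted by the Benjamini-Hochberg method over all genes tested. Depth ran from 8857442 to 10164137 expected counts per library, so that 3 counts correspond to between 0.295 and 0.339 CPM, the count scaled to library size. Colorectal epithelial markers were over 1 TPM for 10 of 10 genes in every HT29 library and for 7 of 10 in every SW480 library, while the leukocyte gene PTPRC was listed at 0 throughout and the summed hepatocyte markers reached at most 3.66 TPM. The 5 leukocyte markers summed to between 4448 and 4678 TPM in HT29, nearly all from the secreted enzyme LYZ, and to between 18.7 and 29.0 TPM in SW480. LYZ and CD68, the 2 of them that could be tested in HT29, fell there with a median log2 fold change of -0.25, and their part in the results was not tested. The summed endothelial and fibroblast markers reached 0.45 and 1.94 TPM in HT29 and 1.96 and 9.46 TPM in SW480. The 2 SW480 siCon libraries stood apart from each other, with a chi-square of 11.2 per degree of freedom against 1.43 to 2.13 within the other groups, and their log ratio followed the GC content of the transcripts (Spearman correlation of 0.81 across genes, which are not independent). SW480 results that rest on 1 of these libraries are given without each in turn, and the spread in such a fit of SW480 comes from the siPrdx2 pair alone.

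The receptor itself did not pass the test in either line. AHR (chr7:16955983-17385776) was at 59.95 and 60.06 TPM in HT29 siCon and at 63.02 and 62.55 TPM in HT29 siPrdx2. The TPM ranges did not overlap, but the change in counts scaled by the trimmed mean of M values (TMM) was 0.00 on the log2 scale (95% interval -0.08 to 0.09, adjusted p = 0.994 by edgeR). In SW480, AHR was at 32.64 and 29.13 TPM in siCon and at 37.47 and 37.85 TPM in siPrdx2. Both depleted libraries were above both controls, and the change of 0.20 on the log2 scale (95% interval -0.06 to 0.45) did not pass the test (adjusted p = 0.306 by edgeR). The value depended on the control library, at 0.27 without SW480 siCon replicate 1 and 0.12 without replicate 2. With a correction for transcript GC content it was 0.40 (adjusted p = 0.00138 by edgeR). That fit called 2365 of 12418 genes tested, against 466 of 14112 in the main fit. In whole cultures, fewer cells that express a gene and less RNA of that gene per cell cannot be told apart.

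ARNT (chr1:150782189-150849184), the partner that AHR shares with the hypoxia factors, did not pass the test in either line. It was at 25.98 and 24.20 TPM in HT29 siCon and at 25.31 and 25.04 TPM in HT29 siPrdx2, with a log2 fold change of -0.06 (95% interval -0.19 to 0.07, adjusted p = 0.571 by edgeR). SW480 cells had 21.91 and 21.17 TPM in siCon and 20.71 and 22.28 TPM in siPrdx2, with a log2 fold change of -0.09 (95% interval -0.37 to 0.18, adjusted p = 0.661 by edgeR). The depleted and control ranges overlapped in both lines.

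Of the feedback repressors, AHRR was called in SW480 and TIPARP in HT29. AHRR (chr5:321829-438406) was at 2.52 and 2.32 TPM in HT29 siCon and at 2.71 and 1.94 TPM in HT29 siPrdx2, ranges that overlapped, with a log2 fold change of -0.12 (95% interval -0.54 to 0.30, adjusted p = 0.749 by edgeR). In SW480 it was at 11.55 and 13.54 TPM in siCon and at 30.33 and 29.41 TPM in siPrdx2. Both depleted libraries lay above both controls, and AHRR rose 2.23-fold (log2 fold change 1.16, SE 0.13, adjusted p = 0.00473 by edgeR). The log2 fold change was 1.04 without SW480 siCon replicate 1 and 1.28 without replicate 2. With the GC correction it was 0.99 (adjusted p = 6.44e-06 by edgeR), in a fit that called 2365 of 12418 genes tested. An annotated read-through transcript, PDCD6-AHRR, spans chr5:271785-438406 and shares exons with AHRR, so some AHRR counts may come from it. PDCD6, the gene it begins in, was at 205.03 and 233.77 TPM in SW480 siCon and at 248.65 and 243.13 TPM in SW480 siPrdx2.

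TIPARP (chr3:156391024-156424559) was at 64.89 and 65.38 TPM in HT29 siCon and at 112.06 and 103.20 TPM in HT29 siPrdx2. The groups were well apart, and TIPARP rose 1.58-fold (log2 fold change 0.66, SE 0.05, adjusted p = 2.03e-08 by edgeR). SW480 levels were 160.62 and 128.18 TPM in siCon and 175.91 and 169.76 TPM in siPrdx2. The depleted libraries lay above the controls but the controls were far apart, and the log2 fold change of 0.17 (95% interval -0.10 to 0.45) did not pass the test (adjusted p = 0.398 by edgeR). It was 0.33 without SW480 siCon replicate 1 but 0.02 without replicate 2, so its size was set by which control was kept. With the GC correction it was 0.35 (adjusted p = 0.00162 by edgeR), in a fit that called 2365 of 12418 genes tested. The antisense gene TIPARP-AS1 overlaps the first part of the annotated TIPARP interval on the opposite strand. It ends at chr3:156392235, before the canonical TIPARP start at 156392379. Whether the counting used strand is not given in the sources used here.

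CYP1A1 (chr15:75011883-75017877), which hydroxylates polycyclic aromatic hydrocarbons and clears AHR ligands, is the gene on which the group was chosen. In HT29 it was at 0.17 and 0.17 TPM in siCon, or 2 counts in each library, and at 2.22 and 1.19 TPM in siPrdx2, or 26 and 13 counts. Both depleted HT29 libraries lay above both controls, and they differed from each other. Summed over the libraries, 4 counts in siCon stood against 39 in siPrdx2, a depth-scaled ratio of 9.59 with an exact 95% interval from 3.46 to 36.9 that covers counting error only. In SW480 CYP1A1 was at 5.24 and 4.80 TPM in siCon and at 22.47 and 22.07 TPM in siPrdx2, or 53 and 53 counts against 241 and 241. The ratio of the summed counts, 106 and 482, was 4.17 (exact 95% interval 3.37 to 5.20). The libraries of each SW480 group sat close together, and the groups did not overlap. The fitted log2 fold change was 3.17 in HT29 (SE 0.59) and 2.06 in SW480 (SE 0.18). Because the group was chosen on this rise, the intervals and standard errors of CYP1A1 are a description and not a test of it. CYP1A2, the neighbouring gene on the opposite strand that is best known from liver, was listed at 0 in all libraries but the SW480 siPrdx2 pair, where it had 2 and 4 counts.

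**Figure D2:**
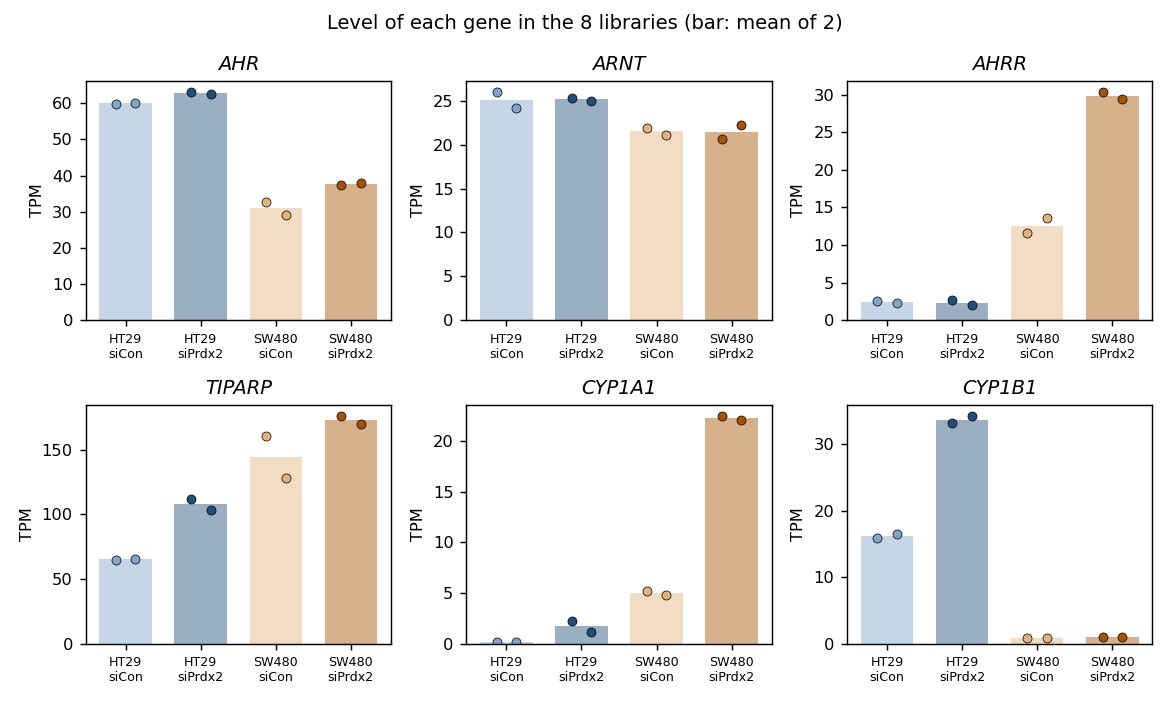
TPM of the 6 genes in each of the 8 libraries, 1 panel per gene on a linear axis from 0. Points are libraries and bars are the means of the 2 libraries of a group. CYP1A1 sits at 0.17 in both HT29 siCon libraries and at 22.47 and 22.07 in SW480 siPrdx2, while CYP1B1 is high in HT29 and near 1 in SW480.

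CYP1B1 (chr2:38294116-38337044), a P450 that also metabolizes estrogens and polycyclic hydrocarbons, had the opposite distribution between the lines. It was at 15.84 and 16.58 TPM in HT29 siCon and at 33.24 and 34.26 TPM in HT29 siPrdx2. The ranges were far apart, and CYP1B1 rose 1.99-fold (log2 fold change 0.99, SE 0.06, adjusted p = 4.62e-09 by edgeR). In SW480 it was at 0.84 and 0.91 TPM in siCon and at 0.98 and 1.06 TPM in siPrdx2, or 17 and 20 counts against 21 and 23. The log2 fold change there was 0.13 (95% interval -0.58 to 0.83, adjusted p = 0.83 by edgeR), and the interval holds both lower and higher levels, so that no change was detectable at this depth. The overlapping antisense gene CYP1B1-AS1 was between 0.96 and 1.92 TPM in HT29 and at most 0.14 TPM in SW480.

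Of the 5 genes besides CYP1A1, 2 rose and none fell in HT29, where 7.76% of all genes tested were called higher, 9.82% lower and 17.6% in either direction. In SW480, 1 of the 5 rose and none fell, against 1.22% of all genes tested called higher, 2.08% lower and 3.30% in either direction. The genes called were TIPARP and CYP1B1 in HT29 and AHRR in SW480. The 6 genes were chosen with these results known, so these shares are a description.

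**Figure D3:**
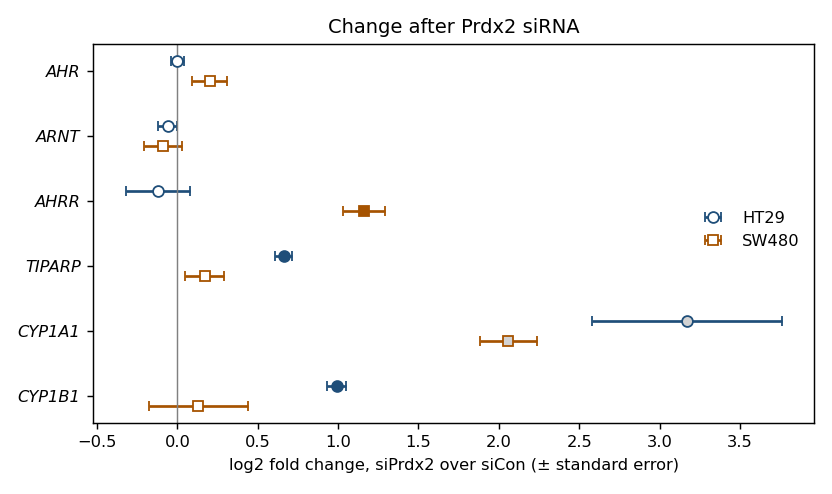
Log2 fold change of each of the 6 genes, siPrdx2 against siCon, with bars of 1 standard error to each side, for HT29 (circles) and SW480 (squares). Filled symbols passed the test, open symbols did not, and grey symbols mark CYP1A1, which was not tested. TIPARP and CYP1B1 are filled in HT29, and AHRR is filled in SW480.

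In the main fit the change in AHRR differed between the lines. The effect in HT29 minus that in SW480 was -1.28 on the log2 scale (SE 0.23, adjusted p = 0.0326 by edgeR over the 8 libraries), and this was the only one of the 5 genes tested whose difference passed, where 1.12% of all genes tested were called. With 1 library left out the AHRR difference ranged from -1.54 to -1.06. Its call held only when an SW480 siCon library was the one left out, where more of all genes were called too. With the GC correction it was -1.10 (adjusted p = 0.00298 by edgeR), in a fit that called 1016 of 12951 genes tested. For TIPARP the difference was 0.48 (SE 0.13, adjusted p = 0.104), and for CYP1B1 it was 0.87 (SE 0.26, adjusted p = 0.14, both by edgeR), so for these genes a change called in HT29 and not in SW480 was not shown to differ between the lines. The TIPARP difference was 0.32 without SW480 siCon replicate 1 and 0.62 without replicate 2. It passed with the GC correction (0.28, adjusted p = 0.0131 by edgeR), in a fit that called 1016 of 12951 genes tested. AHR, with a difference of -0.19 (adjusted p = 0.336), and ARNT, with 0.03 (adjusted p = 0.928), did not pass by edgeR. The AHR difference was -0.27 without SW480 siCon replicate 1, -0.13 without replicate 2 and -0.41 with the GC correction (adjusted p = 0.00256 by edgeR). For CYP1A1 the fitted difference was 1.12 (SE 0.60), with no test. It was 0.59 without HT29 siPrdx2 replicate 1, the library with more CYP1A1 counts, and 1.48 without replicate 2.

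The control libraries of the 2 lines differed in the levels of these genes, as they did for most genes tested. AHR was higher in HT29 siCon than in SW480 siCon by 1.09 on the log2 scale (SE 0.11, adjusted p = 3.33e-05), CYP1B1 by 4.33 (SE 0.19, adjusted p = 2.66e-07) and ARNT by 0.34 (SE 0.12, adjusted p = 0.0294, all by edgeR). AHRR was lower in HT29 by 2.24 on the log2 scale (log2 fold change -2.24, SE 0.18, adjusted p = 8.04e-06) and TIPARP was also lower (log2 fold change -1.02, SE 0.12, adjusted p = 0.000113). CYP1A1 was lower too, by a fitted log2 fold change of -4.65 with no test. All 5 genes tested were called here, where 67.5% of all genes tested were. The ARNT difference was lost in DESeq2 (0.33, adjusted p = 0.0791), in limma on TPM with a pseudocount of 1 (0.21, adjusted p = 0.157) or 0.1 (0.22, adjusted p = 0.152), and when either HT29 siCon library was left out (0.32 and 0.43, adjusted p = 0.319 and 0.175 by edgeR).

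Within a library, levels per length can be ranked. In HT29 siCon the order of mean TPM was TIPARP, AHR, ARNT, CYP1B1, AHRR and CYP1A1, with no neighbours overlapping. In HT29 siPrdx2 CYP1B1 stood above ARNT, and AHRR and CYP1A1 overlapped. In SW480 siCon the order was TIPARP, AHR, ARNT, AHRR, CYP1A1 and CYP1B1 with no overlap. In SW480 siPrdx2 AHRR came before CYP1A1 and ARNT, which overlapped, and CYP1B1 stayed last. The TPM of AHRR relative to AHR was 0.0420 and 0.0386 in HT29 siCon and 0.0430 and 0.0310 in HT29 siPrdx2. In SW480 it was 0.354 and 0.465 in siCon and 0.809 and 0.777 in siPrdx2, and the groups did not overlap. The TPM of TIPARP relative to AHR was 1.08 and 1.09 in HT29 siCon and 1.78 and 1.65 in HT29 siPrdx2. In SW480 it was 4.92 and 4.40 in siCon and 4.70 and 4.49 in siPrdx2, ranges that overlapped.

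**Figure D4:**
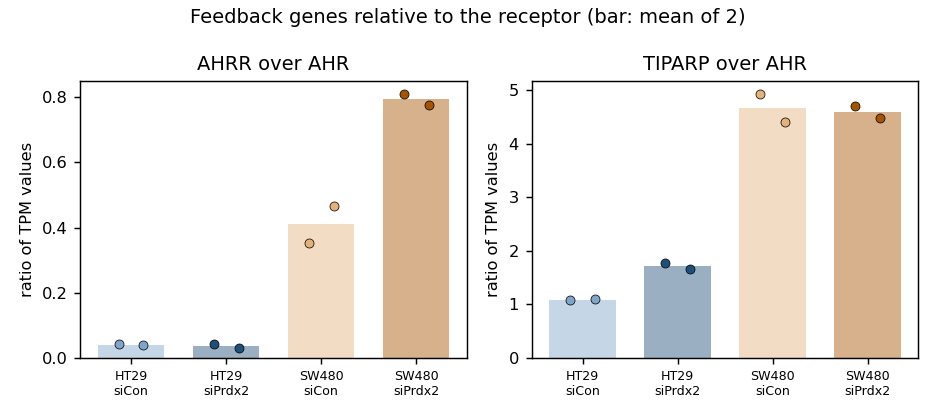
TPM of AHRR (left) and of TIPARP (right) divided by the TPM of AHR in each of the 8 libraries. Points are libraries and bars are the means of 2. The AHRR ratio is 0.777 and 0.809 in SW480 siPrdx2 and at most 0.0430 in HT29.

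The other genes of the pathway were taken from lists by role. These lists were chosen with earlier results of these data known. Their counts and medians, here and below, are therefore a description and not a test of any list. Of 12 other classical AHR targets, 8 could be tested in HT29, and 5 rose and none fell, where 7.76% of all genes tested were called higher and 9.82% lower. The median log2 fold change of the 8 was 0.20 against -0.00 over all genes tested. ALDH3A1, an aldehyde dehydrogenase, was at 11.59 and 11.56 TPM in siCon and at 17.35 and 20.69 TPM in siPrdx2 (log2 fold change 0.64, adjusted p = 0.0042 by edgeR). EREG, the growth factor epiregulin, was at 106.87 and 108.56 TPM in siCon and at 172.32 and 167.10 TPM in siPrdx2 (0.59, adjusted p = 1.40e-09 by edgeR). CYP2S1, another P450, was at 54.06 and 54.85 TPM in siCon and at 70.36 and 76.05 TPM in siPrdx2 (0.36, adjusted p = 0.000263 by edgeR). NFE2L2, which encodes the oxidant-response factor NRF2, rose by 0.29 on the log2 scale (adjusted p = 3.09e-05) and NQO1, a quinone reductase that AHR and NRF2 both regulate, by 0.11 (adjusted p = 0.00691, both by edgeR). UGT1A6, a glucuronosyltransferase, did not pass, at -0.12 on the log2 scale (adjusted p = 0.341 by edgeR). UGT1A6 shares exons with the other UGT1A genes, so its counts are uncertain. The HT29 calls of list genes, here and below, are from the main fit, which called 2279 genes. DESeq2 called 871 and the fit of all 8 libraries called 185. A small change called here, such as that of NQO1, may therefore not be called in those fits.

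In SW480, 8 of the 12 targets could be tested and none passed, with a median log2 fold change of 0.05 against 0.00 over all genes tested. EREG was at 16.78 and 14.41 TPM in siCon and at 9.63 and 11.46 TPM in siPrdx2, which gave -0.65 on the log2 scale (adjusted p = 0.0568 by edgeR). Its change differed between the lines by 1.25 on the log2 scale (adjusted p = 0.00248 by edgeR over the 8 libraries), a call lost without HT29 siPrdx2 replicate 1 (1.23, adjusted p = 0.0508). ALDH3A1 was at 7.04 and 7.70 TPM in siCon and at 8.72 and 8.82 TPM in siPrdx2, and NQO1 was at 273.55 and 231.11 TPM in siCon and at 297.71 and 300.18 TPM in siPrdx2. The log2 fold change of NQO1 was 0.16 (adjusted p = 0.401 by edgeR), 0.27 without SW480 siCon replicate 1 and 0.04 without replicate 2. UGT1A6 was at 13.98 and 16.06 TPM in siCon and at 13.50 and 17.16 TPM in siPrdx2.

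**Figure D5:**
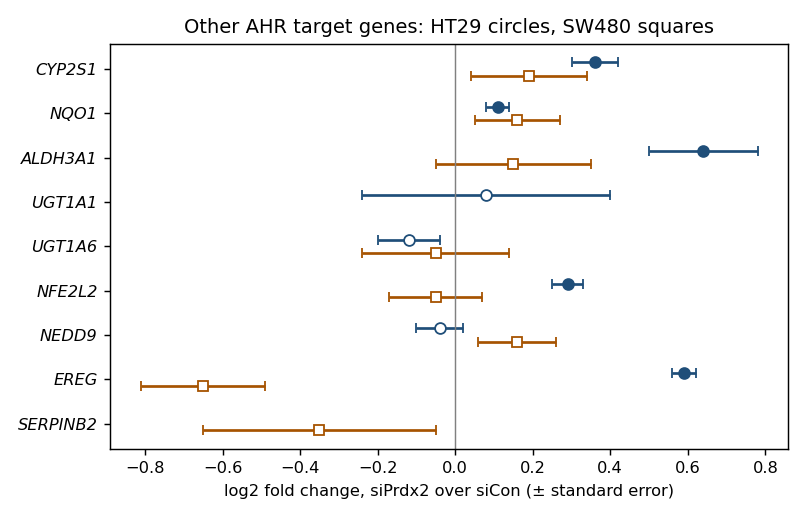
Log2 fold change, siPrdx2 against siCon, of the other AHR target genes that could be tested in HT29 (circles) and SW480 (squares), with bars of 1 standard error to each side. Filled symbols passed the test and open symbols did not. In HT29 EREG lies at 0.59 and in SW480 at -0.65, and no target passed the test in SW480.

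Of the 7 genes of the cytosolic receptor complex and its turnover, none rose and 3 fell in HT29, where 9.82% of all genes tested were called lower. The list median was -0.05 on the log2 scale, and those that fell were the chaperones HSP90AA1 (-0.09, adjusted p = 0.0105) and HSP90AB1 (-0.05, adjusted p = 0.0483) and the co-chaperone PTGES3 (-0.17). The HSP90AB1 call was lost with RLE normalization (adjusted p = 0.0509), without the count filter, with the robust prior, in DESeq2 and without any 1 library, and its direction turned on the TPM scale. In SW480 only CUL4B, a ubiquitin ligase scaffold, passed, where 3.30% of all genes tested were called. It was at -0.76 (adjusted p = 0.03 by edgeR), with 119.77 and 88.78 TPM in siCon and 66.50 and 64.81 TPM in siPrdx2. The call was lost without either SW480 siPrdx2 library (adjusted p = 0.168 and 0.217 by edgeR). HSP90AB1 and PTGES3 did not pass in SW480.

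Among other bHLH-PAS factors, 9 of 11 were tested in HT29, and ARNTL, a core clock factor, rose by 0.41 (adjusted p = 0.0123 by edgeR) while ARNTL2, at -0.36, and the clock repressor PER2, at -0.35, fell. The list median was -0.03, and 7.76% of all genes tested were called higher in HT29 and 9.82% lower. In SW480 ARNTL2 was at -0.60 (adjusted p = 0.0423 by edgeR) and was the only one of 10 to pass, where 3.30% of all genes tested were called. The ARNTL2 call was lost without either siPrdx2 library. ARNT2, the second AHR partner in the family, was listed at 0 in HT29 and was at 7.06 and 8.85 TPM in SW480 siCon and at 10.88 and 10.86 TPM in SW480 siPrdx2. Of 9 coregulators, 3 rose in HT29 and none fell, with a median of 0.12, where 7.76% of all genes tested were called higher. These were NCOA7, an estrogen-receptor coactivator, at 15.85 and 13.92 TPM in siCon and 21.55 and 19.73 TPM in siPrdx2 (0.41), the repressor NRIP1 (0.30) and the acetyltransferase EP300 (0.28). In SW480 1 of the 9 rose, where 1.22% of all genes tested were called higher, and the list median was 0.13. It was NCOA7, at 6.76 and 5.25 TPM in siCon and 13.08 and 12.17 TPM in siPrdx2 (0.99, adjusted p = 0.0191 by edgeR). The call was lost without SW480 siPrdx2 replicate 1 (adjusted p = 0.104 by edgeR).

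Of the 12 enzymes that handle tryptophan and kynurenine, from which AHR ligands form, 7 could be tested in each line. IDO1 and IDO2, which open the tryptophan ring, were listed at 0 in all libraries. In HT29 1 of the 7 fell, where 9.82% of all genes tested were called lower. It was KYNU, which cleaves kynurenine, at 6.99 and 5.50 TPM in siCon and 3.97 and 3.76 TPM in siPrdx2 (-0.78, adjusted p = 0.0346 by edgeR). The KYNU call was lost without HT29 siCon replicate 1 or either siPrdx2 library. In SW480 none of 7 passed. IL4I1, an enzyme that forms ligands from tryptophan by another route, was at 10.29 and 8.80 TPM in SW480 siCon and 16.65 and 14.55 TPM in SW480 siPrdx2 and did not pass. Of the other xenobiotic receptors and P450s, only RXRA, the shared partner of the PXR and CAR receptors, fell in HT29 (-0.21), 1 of 9 tested, which is near the 9.82% of all genes called lower, and none of 8 passed in SW480. None of the genes overlapping or next to the 6 genes passed in either line, with medians of 0.06 in HT29 and 0.24 in SW480.

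The genes whose levels across the 8 libraries were most like those of CYP1A1, by Pearson correlation of TMM-scaled log2 CPM over 14771 other genes, were SAT1 (0.993), DKFZp434J0226 (0.990), CDX2 (0.984), DDX27 (0.984) and MICAL3 (0.983). SAT1, which acetylates polyamines, had mean TPM of 91.3 in HT29 siCon, 168 in HT29 siPrdx2, 299 in SW480 siCon and 558 in SW480 siPrdx2. CDX2, an intestinal transcription factor, had means of 8.41, 13.1, 20.5 and 29.7 in the same order. These libraries fall into 2 lines, so the order of the groups sets these coefficients. Within the axis TIPARP had a coefficient of 0.96 with CYP1A1 and AHRR 0.90, while CYP1B1, AHR and ARNT had -0.78, -0.79 and -0.91.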

How the data were processed

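Gene expression was measured by poly(A) RNA sequencing in 8 libraries, 2 for each of 4 groups. The authors deposited, per gene, expected counts, TPM and FPKM from RSEM after alignment with MapSplice to hg19 with RefSeq genes; read checks used FastQC. The paper describes these steps for the HT29 samples, and strand use in counting is not given in the sources used here. The FPKM values deposited were not used. The deposited TPM values were used for levels and the deposited expected counts, rounded to whole numbers, for tests.

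A gene entered a test if 2 or more libraries reached 10 counts, with edgeR 4.0.16 (R 4.3.3) with TMM scaling, quasi-likelihood fits per line, over the 8 libraries for the difference between lines, and over the 4 control libraries for the baseline, with Benjamini-Hochberg adjustment and a threshold of 0.05. Standard errors were the size of the log2 fold change divided by the square root of F. Matched replicate numbers did not pair the samples. DESeq2 1.42.0, limma 3.58.1 on TPM with a pseudocount of 1 or 0.1 before the log2, and other choices were alternatives, and the GC correction, a loess curve of span 0.5 on transcript GC content for the 88.1% (HT29), 88.0% (SW480) or 87.7% (difference) of tested genes with a value, was chosen after seeing the data. The model code was tested on simulated data. Windows for response elements come from GRCh37 with GENCODE annotation.

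The 6 genes and all lists were chosen with earlier results of these data known. The genes named are the 6, PRDX2, up to 4 genes past the threshold per list and comparison with the largest change, fixed genes (ARNT2, CYP1A2, NQO1, ALDH3A1, UGT1A6, HSP90AB1 and PTGES3, and 1 that is not reported here) and the 5 most like CYP1A1 (prior count 2). CYP1A1 was not tested. Further list genes are named for levels.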

Additional observations from a re-analysis of the deposited data

Results flagged for a closer look

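For 3 of the genes examined the siPrdx2 effect was unequal in HT29 and SW480, by the interaction term of edgeR over the 8 libraries. For AHRR the effect in HT29 minus that in SW480 was -1.28 on the log2 scale (adjusted p = 0.0326). That call was lost when any library other than an SW480 siCon library was left out. For PRDX2, the targeted gene, it was 0.84 (adjusted p = 0.0128), since the fall was smaller in HT29. For EREG it was 1.25 (adjusted p = 0.00248), with a rise in HT29 and a lower value in SW480 that did not pass the test there, and the adjusted p was 0.0508 without HT29 siPrdx2 replicate 1.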

How the results depend on the processing

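With 2 libraries a group, 1 library can decide a call. The count of genes past the threshold in HT29, 2279, was 871 in DESeq2 and 185 in the fit of all 8 libraries, and ran from 1574 to 2030 when 1 library was left out. The SW480 count, 466, was 214 in limma with a pseudocount of 1 and 177 with 0.1, 2415 in the fit of all 8 libraries, 2365 with the GC correction and 87 to 7364 with 1 library left out. The count for the difference, 166, was 267 with no filter, 311 in DESeq2, 103 and 43 in limma, 1016 with the GC correction and 6 to 5237 with 1 library left out. The baseline count, 9681, ran from 6905 to 9970. A group left with 1 library was assumed to vary like the others. Replicate numbers correlated at 0.05 in HT29 and 0.08 in SW480, so they were not treated as pairs, and a replicate block gave 2889 genes in HT29, 1727 in SW480, 196 for the difference and 10044 at baseline. Higher against lower calls were 1006 and 1273 in HT29 and 1252 and 548 in limma, and 172 and 294 in SW480 and 126 and 88 in limma on log2(TPM + 1). The TPM scale moved the median of all genes at baseline from -0.04 to -0.15. The cause was not tested.

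TIPARP and CYP1B1 in HT29 and AHRR in SW480 kept direction and call in every alternative that gave an adjusted p. Of 230 alternative results for 18 genes outside the axis in HT29, 40 were weaker than the main result and 3 turned direction. Only a gene called in the main fit can become weaker, and these genes were named mostly because they were called. The numbers therefore do not compare their stability with that of the 6 genes, for which 4 of 75 alternative results in HT29 turned direction. The AHRR difference was lost in limma on log2(TPM + 0.1) (-1.32, adjusted p = 0.0894) and ranged from -1.54 to -1.06 with 1 library left out. The TIPARP difference passed in DESeq2 (0.48, adjusted p = 0.0485) and the CYP1B1 difference in limma on log2(TPM + 1) (0.91, adjusted p = 0.0496). On log2(TPM + 1) CYP1A1 was 1.18 in HT29 and its difference turned to -0.77, and at baseline it was -2.36. Directions that turned were of small, mostly uncalled changes. In limma they were ARNT (0.01) and HSP90AB1 (0.02) in HT29, UGT1A6 (0.02) and HSP90AB1 (0.04) in SW480, HSP90AB1 in the difference (-0.02) and at baseline (-0.09). With the GC correction they were ALDH3A1 (-0.08) and UGT1A6 (0.01) in SW480, and ARNT (-0.04), HSP90AB1 (-0.08) and PTGES3 (-0.13) in the difference. With 1 library left out, ranges that crossed 0 were, in HT29, AHR (-0.00 to 0.00), AHRR (-0.38 to 0.09) and UGT1A6 (-0.24 to 0.01), in SW480, UGT1A6 (-0.22 to 0.10) and HSP90AB1 (-0.14 to 0.04), in the difference, ARNT (-0.02 to 0.09), NQO1 (-0.17 to 0.05), UGT1A6 (-0.22 to 0.10), HSP90AB1 (-0.08 to 0.08) and PTGES3 (-0.15 to 0.22), and at baseline HSP90AB1 (-0.11 to 0.07).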
